A study of Mus musculus with 217 samples.

Results

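The peroxiredoxin family of the mouse comprises 6 genes, Prdx1 to Prdx6, of the 53619 genes in the deposited count tables. The family was selected on its granulosa values, because Prdx5 had been seen to differ with resveratrol and with the Tet2 genotype label in granulosa pools. Those contrasts are therefore given here as a description: the members counted past a threshold in them stand beside the share of all genes, and nothing is read from them. All 6 genes were found in both tables and passed the filter on low counts in each model below.

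Messenger RNA was measured with Smart-seq2 in 3 sets of libraries. The first held 18 pools of granulosa cells, the somatic cells around the oocyte, in 6 groups of 3: 2-month wild type, 2-month Tet2 knockout, and 10-month wild type and Tet2 knockout, each with and without resveratrol. The second held single metaphase II oocytes in 10 groups of 14 to 20, the same 6 groups plus 6-month wild type and knockout with and without resveratrol, all on a C57BL6/129 background. The third held 28 single oocytes of C57BL6 mice, of which 27 fell into 3 groups: 11 of 6-month controls, 6 of 10-month controls and 10 of 10-month resveratrol mice. Resveratrol, a plant polyphenol, was given in drinking water at 30 mg per L from the age of 2 months, and control water held the solvent DMSO. All females were primed with gonadotropin, and those that gave oocytes also received hCG. No animal is named in the labels. A p-value here therefore reflects the spread among these libraries, which may be technical. The labels put the cells in a granulosa pool at 500 in one place and at 50 in another.

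Peroxiredoxins are thiol enzymes that reduce hydrogen peroxide and organic hydroperoxides. Prdx1 to Prdx5 are recycled mainly by thioredoxin, and Prdx6 by glutathione. Prdx1 and Prdx2 are mainly cytosolic, Prdx3 is mitochondrial, Prdx4 enters the secretory pathway, Prdx5 occurs in mitochondria, peroxisomes and cytosol, and Prdx6 is a cytosolic enzyme that also acts on phospholipids. Mitochondrial respiration, steroid synthesis in granulosa cells and disulfide formation in secreted proteins all yield peroxide.

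In the GRCm38 annotation (GENCODE vM21) all 6 are protein-coding genes. Prdx1 (ENSMUSG00000028691.12) lies at chr4:116685544-116700822 on the plus strand, Prdx3 (ENSMUSG00000024997.7) at chr19:60864051-60874556 on the minus strand, Prdx4 (ENSMUSG00000025289.15) at chrX:155323918-155340754 on the minus strand and Prdx6 (ENSMUSG00000026701.15) at chr1:161240112-161251219 on the minus strand. None of these 4 overlaps another annotated gene. Prdx2 (ENSMUSG00000005161.15) lies at chr8:84969587-84974834 on the plus strand and overlaps Junb and Rnaseh2a on the other strand. Prdx5 (ENSMUSG00000024953.17) lies at chr19:6906697-6910106 on the minus strand and overlaps Trmt112 on the plus strand. No source used here gives the strand setting of the counting, so reads in these overlaps cannot be told apart.

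The RefSeq promoter table (GRCm38.p6) held 5 of the 6 genes, all but Prdx6. Upstream windows of 250 bases plus 50 bases past the start were searched on both strands for 3 motifs: TGACNNNGC, the core of the antioxidant response element bound by NRF2; TGACGTCA, the cAMP response element; and GGGCGG, the GC box. The antioxidant core matched in Prdx1 only, from base -133 to base -125 counted from the RefSeq start, and it was present in 12.4% of all 32851 windows. A GC box was present in all 5 genes and in 35.7% of all windows. The cAMP element matched in none of the 5 and in 1.79% of all windows. The stretch of Prdx1 with the antioxidant match is shown because Prdx1 was the most abundant member in both cell types. It spans chr4:116685439-116685538 on the plus strand, bases -160 to -61 from the RefSeq start, and capitals mark first the antioxidant core, read here on the opposite strand, and then the GC box.

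Prdx1 upstream: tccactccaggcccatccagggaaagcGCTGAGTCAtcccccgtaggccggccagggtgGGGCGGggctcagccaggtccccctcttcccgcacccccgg

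A match is a run of letters and was not tested for binding in these data.

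Granulosa pools held 470647 to 20537935 counts. The 5 pools under 1000000 counts were all young, 3 wild type and 2 labelled knockout, and the third young pool labelled knockout held 11595710. Age and depth can therefore not be told apart in the granulosa data. Of 14 granulosa marker genes at most 1 was at 0 in any pool, and all 12 oocyte markers were detected in every oocyte. Knockout oocytes held less Tet2, with group sums of 0.961 to 1.4 against 2.36 to 3.19 CPM in wild type (CPM are counts scaled to a library of 1000000, here with TMM factors) and a log2 difference of -1.36 (adjusted p = 0.0360, edgeR quasi-likelihood test). In granulosa pools Tet2 was not lower under the knockout label, at group means of 11.8 to 15.7 CPM against 8.09 to 14.6 CPM. The granulosa groups are therefore called by their label.

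Prdx5, the broadly located member, showed the separation by which the family was selected. In young wild-type pools it stood at 115, 105 and 98.4 CPM, and in young pools labelled knockout at 216, 208 and 201 CPM. In old wild-type controls it stood at 141, 145 and 181 CPM, and in old wild-type pools with resveratrol at 328, 294 and 338 CPM. Old controls labelled knockout held 242, 277 and 273 CPM, and old resveratrol pools labelled knockout held 267, 257 and 228 CPM. The young groups did not overlap, nor did the old wild-type groups with and without resveratrol. Non-overlapping pools were found for 1 of 6 members and 9.05% of all 17558 genes between the young groups, for 6 of 6 and 30.5% with resveratrol in old wild-type pools, and for 6 of 6 and 27.8% between the old control groups. The highest Prdx5 levels of all 18 pools were the 3 old wild-type pools with resveratrol. Under the knockout label the groups with and without resveratrol overlapped.

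As fitted differences, Prdx5 was 2.05-fold higher with resveratrol in old wild-type pools, with a log2 difference of 1.04 (SE 0.16), and 0.949-fold in old pools labelled knockout, with a log2 difference of -0.07 (SE 0.16). By label, Prdx5 was 1.96-fold higher in young pools and 1.69-fold higher in old controls labelled knockout. With resveratrol the order of the labels turned, and the log2 difference was -0.35 (SE 0.16). The resveratrol difference was lower under the knockout label by a log2 difference of -1.11 (SE 0.23). With single pools left out in turn this last log2 difference ranged from -1.21 to -1.01. The log2 difference with resveratrol in old wild-type pools then ranged from 0.93 to 1.14, that by label in young pools from 0.92 to 1.06 and that by label in old controls from 0.66 to 0.86. In that order 4, 3 and 3 of 6 refits passed. All these contrasts served to choose the family, so the ranges are a description.

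**Figure D1:**
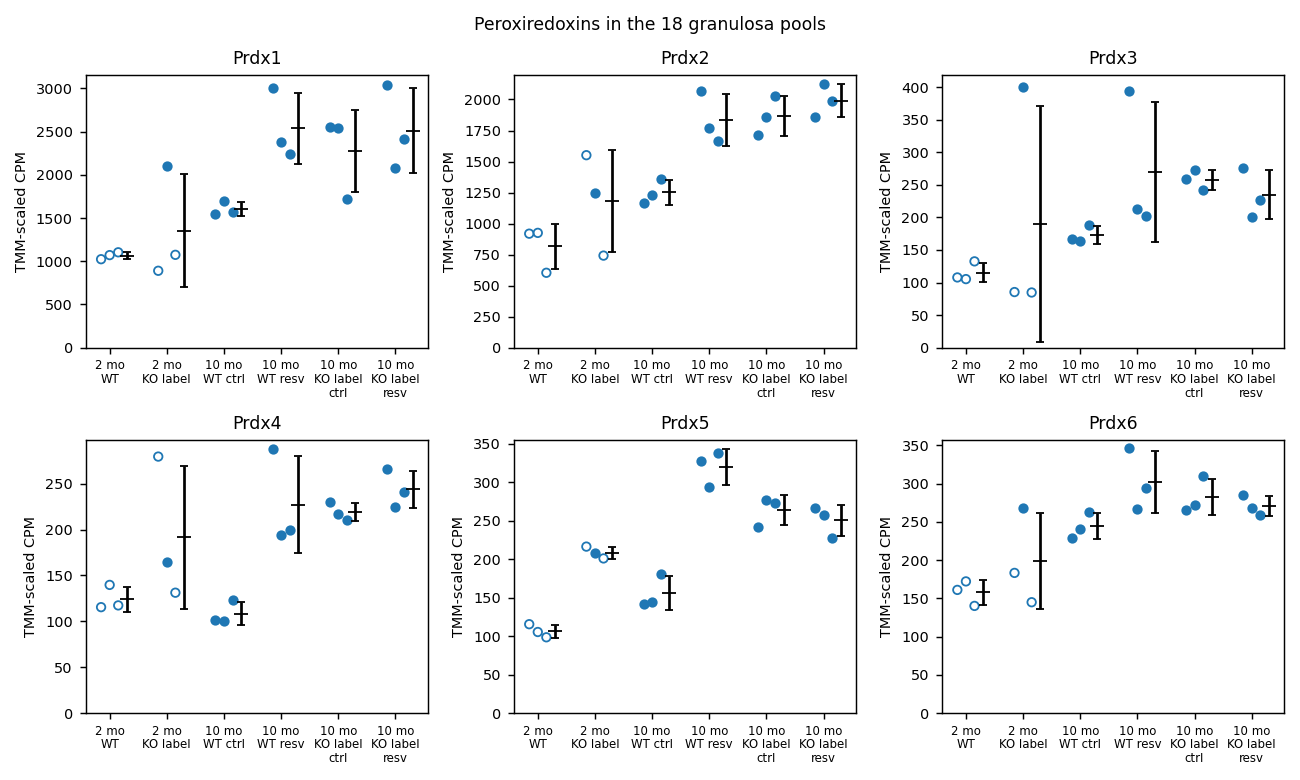
Each panel plots 1 peroxiredoxin in the 18 granulosa pools, with the group on the horizontal axis and TMM-scaled CPM on the vertical axis; points are pools, open points are pools under 1000000 counts, and bars are the mean and SD of 3 pools. Prdx5 is tight within groups, while the deep young pool labelled knockout stands above the other 2 of its group for Prdx1, Prdx3 and Prdx6.

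Prdx4, the secretory-pathway member, was close to Prdx5 in its pattern among old pools. It stood at 102, 101 and 123 CPM in old wild-type controls and at 288, 194 and 200 CPM in old wild-type pools with resveratrol. In old pools labelled knockout it stood at 230, 217 and 210 CPM without resveratrol and at 266, 225 and 241 CPM with it. The 3 old wild-type controls were thus the lowest of the 12 old pools. In young pools the spread was wider, at 115, 140 and 117 CPM for wild type and at 280, 165 and 131 CPM under the knockout label, and these groups overlapped. The fitted log2 difference of Prdx4 was 1.07 (SE 0.22) with resveratrol in old wild-type pools and 1.02 (SE 0.22) by label in old controls. With single pools left out in turn the first ranged from 0.82 to 1.15 and the second from 0.96 to 1.1.

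Members past an adjusted p of 0.05 in these contrasts are listed with the share of all 17558 genes that crossed it, and nothing is read from them. With resveratrol in old wild-type pools 2 of 6 members, Prdx4 and Prdx5, were higher, against 1.17% of all genes. By label in old controls the same 2 were higher, against 2.83% of all genes, and by label in young pools 1, Prdx5, was higher, against 0.103%. The resveratrol difference was lower under the knockout label for 1 member, Prdx5, against 0.148% of all genes. With resveratrol under the knockout label 0 members passed, against 0.0285% of all genes in either direction, and by label among old resveratrol pools 0 passed, against 1.07%. At an unadjusted p under 0.05 these last 2 contrasts held 0 and 1 members, and DESeq2 called 0 in both.

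The cytosolic pair Prdx1 and Prdx2 and the mitochondrial Prdx3 were followed in the same old wild-type groups. Prdx1 stood at 1604 ± 77.6 CPM (SD, n = 3) in old wild-type controls and at 2540 ± 411 CPM with resveratrol, and the 3 pools of each group did not overlap. Prdx2 stood at 1251 ± 99.9 CPM and 1836 ± 208 CPM in the same groups, again with no overlap. Prdx3 stood at 173 ± 13.2 CPM and 269 ± 108 CPM, the larger spread coming from pool 1 with resveratrol at 393 CPM. All 6 members had a positive log2 difference with resveratrol in old wild-type pools, with a median of 0.65 against 0.01 over all genes tested. This contrast served to choose the family and Prdx5 is among the 6, so the median is a description. The members also varied together, with Pearson's r of 0.547 to 0.936 over the 12 old pools. Under the knockout label the median of the 6 was 0.02 and ranged from Prdx3 at -0.13 to Prdx4 at 0.15. Prdx6 had the smallest difference of the 6 in old wild-type pools, at a log2 value of 0.31 (SE 0.19).

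Markers of other cells were measured in the same pools. The summed level of 15 macrophage and leukocyte markers was 0.0127% to 0.0177% of counts in old wild-type controls, 0.0232% to 0.0399% in old wild-type pools with resveratrol, 0.134% to 0.173% in old controls labelled knockout and 0.0398% to 0.0920% in old resveratrol pools labelled knockout. At most 2 of the 15 were at 0 in any old pool. This level was higher in old controls labelled knockout and in old wild-type pools with resveratrol than in old wild-type controls, as all 6 members were. Between the first 2 of these groups the mean marker level was 0.151% and 0.0304%. Mean Prdx5 was 264 and 320 CPM there, and mean Prdx2 was 1867 and 1836 CPM. In young pools labelled knockout the markers were at 0.00654%, 0.0898% and 0.00443%, with 9, 0 and 12 of 15 at 0. The 5 red blood cell markers summed to 0.0271% to 0.421% of counts in old wild-type controls. They summed to 0.0434% to 0.760% in old wild-type pools with resveratrol and 0.161% to 0.216% in old controls labelled knockout. Their median log2 difference was 0.28 with resveratrol in old wild-type pools and -0.46 by label in old controls. For the 9 oocyte markers tested these medians were 0.47 and -1.73. The part of any of these markers in the differences of the members was not tested. In bulk pools, fewer cells of a type and less RNA per cell cannot be told apart.

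The overlapping neighbour of Prdx5 was followed in the same contrasts. Trmt112, which encodes a cofactor of methyltransferases, stood at 95.6 ± 8.26 CPM in old wild-type controls and at 145 ± 24.4 CPM with resveratrol (SD, n = 3). Its log2 difference with resveratrol was 0.60 (SE 0.22) in old wild-type pools and 0.21 (SE 0.22) under the knockout label. By label in young pools it was 0.29 (SE 0.26), where Prdx5 was at 0.97 (SE 0.18). By label in old controls it was 0.41 (SE 0.22), from 89.3 to 105 CPM in wild type and from 115 to 137 CPM under the knockout label, with no overlap.

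**Figure D2:**
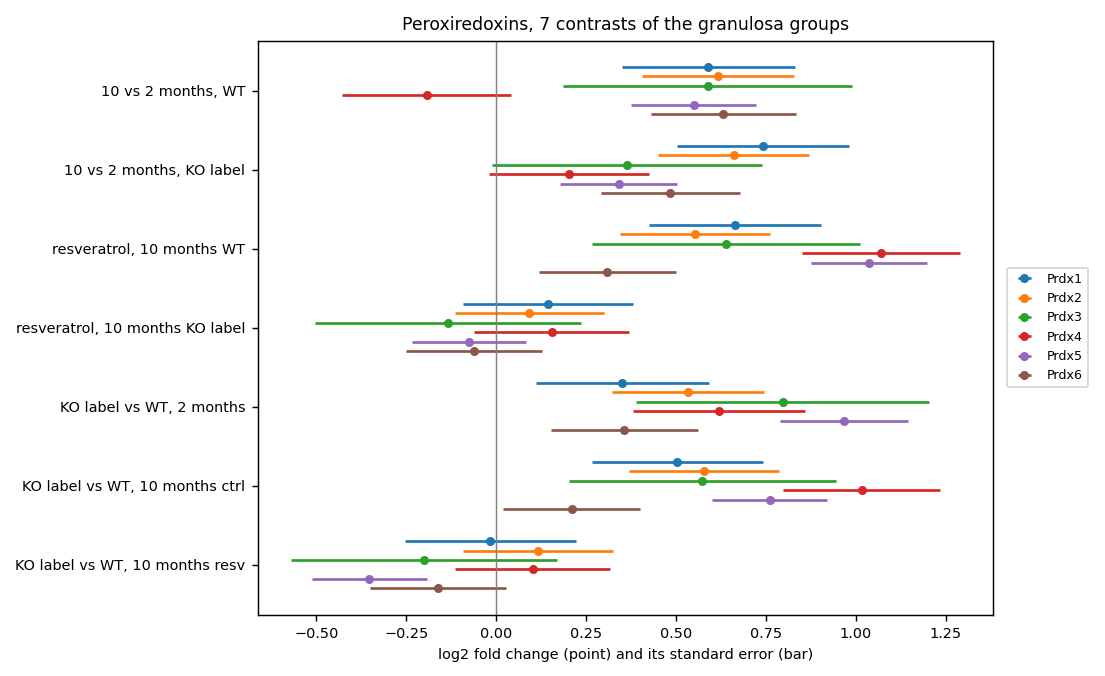
The horizontal axis is the log2 fold change from the 18-pool model and each row is a contrast of granulosa groups; points are the 6 members and bars their standard errors. All 6 members lie right of 0 in the contrasts of resveratrol in old wild-type pools and of label in old controls, and around 0 for resveratrol under the knockout label.

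Age was compared between old controls and young pools within each label. The choice of the family did not use the age contrasts themselves. All their pools also stood in label contrasts that it used, so these tests are not independent of the choice. In wild-type pools 0 of 6 members passed, against 1.53% of all genes (268 of 17558), by edgeR's quasi-likelihood test with Benjamini-Hochberg adjustment; 4 of 6 had an unadjusted p under 0.05 and DESeq2 called 0. Prdx1 stood at 1024, 1071 and 1104 CPM in young and at 1545, 1692 and 1574 CPM in old wild-type pools. The young and old wild-type pools of Prdx1 did not overlap, which held for 5 of 6 members and for 31.8% of all genes, and the log2 difference was 0.59 (SE 0.24, edgeR adjusted p = 0.222). Prdx6 stood at 161, 172 and 140 CPM in young and at 229, 241 and 262 CPM in old wild-type pools, also with no overlap, for a log2 difference of 0.63 (SE 0.20, edgeR adjusted p = 0.116). Prdx2 differed by 0.62 (SE 0.21), Prdx5 by 0.55 (SE 0.17) and Prdx3 by 0.59 (SE 0.40) on the log2 scale. Prdx4 alone had a negative value, -0.19 (SE 0.23). Prdx1 passed when only the 2 groups were fitted (log2 0.49, edgeR adjusted p = 0.0242), and Prdx1 and Prdx2 passed with no filter on low counts. The median of all genes in this contrast was 0.17 with TMM and 0.07 with RLE factors, and the median of the 6 members was 0.59 with TMM. Markers of other cells moved with age in these pools: 4 of 9 oocyte markers tested were lower in old wild-type pools (median log2 difference -6.30), and 15 macrophage and leukocyte markers and 5 red blood cell markers had medians of 5.36 and 3.65 with 0 past the threshold. Their part in the age differences of the members was not tested.

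Under the knockout label 0 of 6 members passed with age, against 5.17% of all genes (908 of 17558), with 4 of 6 at an unadjusted p under 0.05 and 0 called by DESeq2. The values nearest to the threshold were Prdx2 at a log2 difference of 0.66 (SE 0.21, edgeR adjusted p = 0.0687) and Prdx1 at 0.74 (SE 0.24, edgeR adjusted p = 0.0737). The deep young pool of this label, pool 2, differed from the other 2. It held Prdx1 at 2099 CPM against 890 and 1074, Prdx3 at 400 CPM against 85.4 and 84.7, and Prdx6 at 268 CPM against 183 and 145. Without it Prdx1 (log2 1.21), Prdx3 (log2 1.59) and Prdx6 (log2 0.77) passed, while Prdx2 alone passed without young pool 1, Prdx1 alone without old control pool 3, and none without any of the other 3 pools. When only pool 2 stood for the young group and all shallow pools were left out, the log2 values were 0.03 for Prdx1, -0.72 for Prdx3 and -0.01 for Prdx6. Here 7 of 15 macrophage and leukocyte markers were higher in old pools (median log2 difference 2.3), 6 of 9 oocyte markers were lower (median -6.63), and the 5 red blood cell markers had a median of 2.3 with 0 past the threshold. The part of these markers was again not tested. The difference of the age contrasts between labels is by construction the label difference in old controls less that in young pools, both of which served to choose the family, so it is given as a description. In it 0 of 6 members passed, against 0.137% of all genes (24 of 17558), with 0 members at an unadjusted p under 0.05 and 0 called by DESeq2, and nothing is read from this.

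Partner genes were counted in the same age contrasts. Of 14 thioredoxin and glutathione reductants, 2 rose with age under the knockout label: Txn1, cytosolic thioredoxin, by a log2 value of 1.14 (edgeR adjusted p = 0.00104), and Glrx5, a mitochondrial glutaredoxin, by 1.23 (edgeR adjusted p = 0.0273). In wild-type pools 0 of the 14 passed, and the lowest p belonged to Glrx5 at 1.42 and Glrx2 at 0.99. Among 7 other peroxide and superoxide enzymes only Gpx1, the main cytosolic glutathione peroxidase, passed, with a log2 difference of 0.77 in wild-type pools (edgeR adjusted p = 0.0431) and 0.70 under the knockout label (edgeR adjusted p = 0.0285). Of 10 partners of oxidative folding in the endoplasmic reticulum, Pdia4, a disulfide isomerase, rose by 1.7 in wild-type pools (edgeR adjusted p = 0.0345), and the difference of its age contrasts between labels was -2.87. Under the knockout label 0 of the 10 passed, and the lowest p belonged to Pdia4 at -1.17 and Ero1lb at -0.88. Of 4 hyperoxidation repair genes and of 10 genes of the NRF2 pathway, 0 passed in either age contrast. The lowest p among them in wild-type pools were Sesn2 at -1.78 and Srxn1, sulfiredoxin, at 0.69, and Gsta4 at 1.66 and Nfe2l2, which encodes NRF2, at 0.47. Under the knockout label they were Sesn3 at -0.68 and Sesn1 at -0.42, and Gsta4 at 0.99 and Nfe2l2 at 0.43. In the difference of the age contrasts, again as a description, the lowest p of the other lists were Txn1 at 0.59 and Txnrd3 at -0.79, Sesn2 at 1.62 and Sesn3 at -1.02, Sod2 at 0.56 and Cat at -0.36, and Mafg at 0.54 and Gsta4 at -0.66. The median log2 difference with age of the 14 reductants was 0.48 in wild-type pools and 0.30 under the knockout label, beside 0.17 and 0.10 over all genes tested.

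Oocytes held the peroxiredoxins in other proportions than granulosa cells did. In 6 pairs of sums that share age, genotype label and treatment, 5 of 6 members were lower in oocytes, against 41.4% of all genes (8285 of 20003). Prdx4 was the farthest apart, with 0.210 ± 0.130 CPM in oocytes against 181 ± 47.5 CPM in granulosa cells (SD, n = 6 sums, scaled to total counts) and a log2 difference of -9.02 (SE 0.41, edgeR adjusted p = 1.08e-09). Prdx3 stood at 3.00 ± 0.719 against 238 ± 90.6 CPM, a log2 difference of -5.51 (SE 0.33, edgeR adjusted p = 8.42e-09). For each of the 5 lower members, Prdx2 to Prdx6, all oocyte sums lay below every granulosa sum when scaled to total counts. The share of all genes for which this held was not computed.

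Prdx6 fell by 2.17 on the log2 scale (SE 0.19, edgeR adjusted p = 2.98e-07) from 255 ± 44.9 CPM in granulosa cells to 35 ± 12.4 CPM in oocytes. Prdx2 fell by 1.59 (SE 0.27, edgeR adjusted p = 0.000132), from 1500 ± 390 to 292 ± 67.3 CPM. Prdx5 had the smallest called difference, -0.65 (SE 0.26, edgeR adjusted p = 0.0302), and did not pass with RLE factors, with DESeq2 or without the old wild-type control pair (edgeR adjusted p = 0.0611). Prdx1 did not pass, with a log2 difference of 0.43 (SE 0.27, edgeR adjusted p = 0.161). Its direction depended on scaling: it was called higher in oocytes with RLE factors (0.63) and with DESeq2 (0.64), and stood at -0.33 with total counts and no further factor. These scalings put the median of all genes at 0.26 (TMM), 0.49 (RLE) and -0.47 (total counts). In each of these 3 scalings Prdx1 lay above the median of all genes.

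Levels per kb of exon gave each member's share of the family, with all annotated exons of a gene merged into its length. That length was 4804 bases for Prdx6 and 1478 bases for Prdx3, and the transcripts in use were not determined. The shares and their order depend on this choice. By CPM alone Prdx6 in granulosa cells, at 255, stood above Prdx3 at 238, Prdx5 at 217 and Prdx4 at 181. Prdx1 made up 42.1% ± 1.26 of the family's CPM per kb in granulosa cells and 78.0% ± 3.63 in oocytes (SD, n = 6 sums). Prdx2 made up 31.9% ± 2.97 and 14.8% ± 3.02, so these 2 cytosolic enzymes led in both cell types. Prdx5 held 6.49% ± 0.678 in granulosa cells and 5.79% ± 0.975 in oocytes, a pair of ranges that overlap. Prdx3 made up 10.4% ± 2.87 against 0.314% ± 0.0655, and Prdx4 5.62% ± 0.928 against 0.0158% ± 0.0100. The young granulosa sum labelled knockout came mainly from pool 2, with 11595710 counts beside 749172 and 722075 in the others. Prdx3 held 16.2% in that sum and 8.26% to 9.59% in the other granulosa sums. Prdx6 held 3.51% ± 0.448 against 1.1% ± 0.332. By share, the order in granulosa cells was thus Prdx1, Prdx2, Prdx3, Prdx5, Prdx4 and Prdx6, where of all neighbours only Prdx5 and Prdx4 overlap, and in oocytes Prdx1, Prdx2, Prdx5, Prdx6, Prdx3 and Prdx4, where no neighbours overlap.

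**Figure D3:**
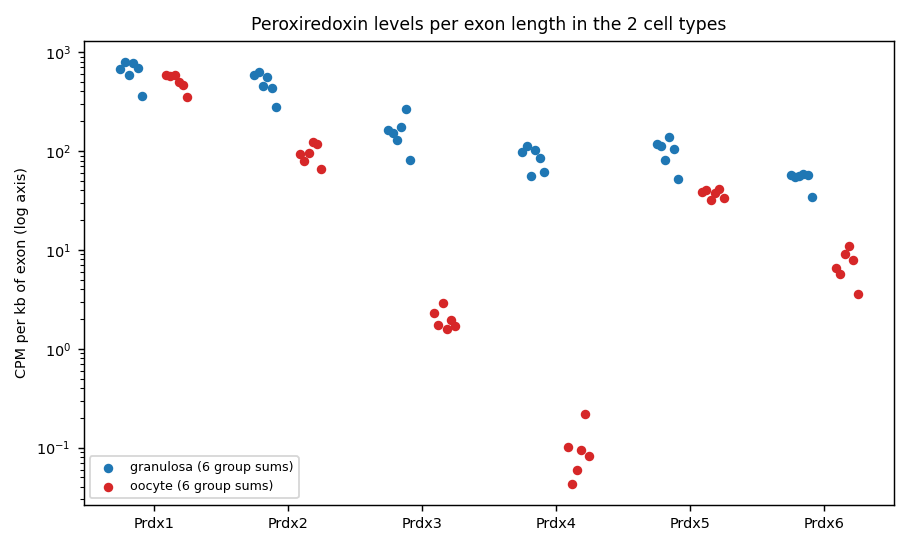
The vertical log axis is CPM per kb of exon and each point is 1 of 6 group sums of granulosa cells (blue) or oocytes (red) for each member. Prdx1 overlaps between the cell types, while Prdx3 and Prdx4 lie far lower in oocytes.

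Partner genes were counted in the same comparison, in which 87.4% of all genes passed in either direction (17477 of 20003), so that a list's count shows nothing particular to it. Of 14 reductants 10 were lower and 4 higher in oocytes, with a median log2 difference of -1.69 beside 0.26 over all genes tested. The 4 with the lowest p were Gsr, glutathione reductase, at -5.47, Glrx3 at -4.86, Txnrd2, the mitochondrial thioredoxin reductase that serves Prdx3, at -4.98 and Glrx2 at -5.41. Of 10 folding partners 6 were lower and 3 higher, led by Gpx8 at -12.53, Gpx7 at -11.07 and Ero1l, an oxidase that makes peroxide in the endoplasmic reticulum, at -7.01, while its paralog Ero1lb was higher by 2.97. Among the 4 repair genes 2 were lower: Srxn1, which restores overoxidized peroxiredoxins, at -8.30, and Sesn1 at -2.36. Of 7 other peroxide and superoxide enzymes 5 were lower, led by Cat, catalase, at -5.39, Gpx4 at -6.05, Gpx1 at -4.70 and Sod1 at -2.43. The 10 NRF2 genes split into 4 higher, with Slc7a11 at 3.6 and Nqo1 at 2.84, and 4 lower, with Sqstm1 at -3.71 and Hmox1 at -6.44. Each of these named differences exceeds the shift of the all-gene median between scalings. Among the 4 higher NRF2 genes Mafg, at 0.61, does not exceed it.

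Among the C57BL6/129 oocytes, with 3386039 to 8775154 counts each, Prdx1 ranged from 725 to 3224 CPM with a median of 1552. Prdx2 ranged from 91.8 to 1928 CPM with a median of 264, Prdx5 from 46.7 to 172 CPM with a median of 79.7, and Prdx6 from 9.49 to 96.7 CPM with a median of 33.5. Prdx3 was at 0 counts in 2 oocytes and Prdx4 in 91. The tightest members within groups were Prdx5 and Prdx1, with median coefficients of variation of 0.174 and 0.176, followed by Prdx2 at 0.244 and Prdx6 at 0.290.

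With no animal named for an oocyte, the oocytes of each group were summed and the 10 sums were fitted with additive terms for age, genotype and treatment. By edgeR's quasi-likelihood test 0 of 6 members passed in each of the 6 contrasts. The share of all 20806 genes that passed was 0.00481% for 10 against 2 months, 0% for 6 against 2 months, 0.00481% for 10 against 6 months, 0.139% for genotype, 0% for resveratrol and 0% for resveratrol by genotype. At an unadjusted p under 0.05 there was 1 member in each of the contrasts of 10 against 2 months, 10 against 6 months and genotype, and 0 in the other 3. DESeq2 called 0 members in all 6. What the additive terms leave over serves as the error of this model, so a difference found at 1 age or genotype alone counts as error.

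Prdx1 was lowest in the youngest wild-type oocytes. Its lowest, median and highest values were 765, 1067 and 1288 CPM at 2 months, 1118, 1371 and 2068 CPM in 6-month controls and 1169, 1774 and 2238 CPM in 10-month controls, all wild type. The medians stood in the order of age, while the ranges overlapped. Knockout oocytes stood at medians of 1447 CPM at 2 months, 1510 CPM in 6-month controls and 1678 CPM in 10-month controls. The fitted log2 difference of 10 against 2 months was 0.45 (SE 0.16, edgeR adjusted p = 0.275).

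Prdx2 separated the 6-month wild-type groups. It ranged from 240 to 448 CPM with a median of 315 in 20 controls and from 121 to 231 CPM with a median of 146 in 14 oocytes with resveratrol, and these ranges did not overlap, as was so for 0.87% of all 20806 genes. Its overlapping neighbours were also lower with resveratrol there, Junb at a median of 1.35 CPM against 60.7 CPM in controls and Rnaseh2a at 14.7 CPM against 22 CPM, and reads of the 3 genes cannot be told apart where they overlap. At 10 months the wild-type medians were 275 CPM in controls and 380 CPM with resveratrol, with overlapping ranges. In knockout oocytes the medians were 247 and 185 CPM at 6 months and 275 and 213 CPM at 10 months, without and with resveratrol. The resveratrol term over all ages and genotypes was -0.27 (SE 0.21, edgeR adjusted p = 1.00). Prdx2 values of the 6-month resveratrol group also differed by the first number in its column names, whose meaning is not given, at medians of 141 CPM in 9 oocytes and 222 CPM in 5, both below the lowest control.

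Prdx6 was lowest in 2 wild-type groups, at medians of 17.0 CPM in 2-month oocytes and 19.7 CPM in 6-month oocytes with resveratrol. The other 8 groups had medians of 22.9 to 48.4 CPM. In 2-month wild-type oocytes Prdx6 ranged from 9.49 to 27.3 CPM and in 10-month wild-type controls from 27.4 to 60.8 CPM, which did not overlap, as was so for 0.707% of all 20806 genes. Apart from this and Prdx2 above, the single-oocyte ranges of the 6 members overlapped in all pairs compared by genotype, by resveratrol, or by age without resveratrol. Ages with resveratrol were not among these pairs. In wild-type oocytes with resveratrol Prdx2 ranged from 121 to 231 CPM at 6 months and from 272 to 469 CPM at 10 months, with no overlap. The share of all genes was not computed for that pair. Knockout oocytes held medians of 34 CPM at 2 months and 29.7 CPM in 10-month controls. The fitted log2 difference of 10 against 2 months was 0.60 (SE 0.40, edgeR adjusted p = 0.553).

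Prdx5, on which the family was selected in granulosa pools, varied little between oocyte groups. Its group medians lay between 68.3 CPM in 10-month wild-type controls and 91.7 CPM in 6-month knockout controls. The resveratrol term was 0.01 (SE 0.10, edgeR adjusted p = 1.00), the genotype term 0.17 (SE 0.09, edgeR adjusted p = 0.472) and the resveratrol by genotype term 0.04 (SE 0.20, edgeR adjusted p = 1.00) on the log2 scale. In oocytes the gene whose pattern was most like that of Prdx5 was its overlapping neighbour Trmt112, at a median of 157 CPM.

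Prdx3 and Prdx4 were near the detection floor in oocytes. Group medians of Prdx3 ranged from 1.69 to 4.91 CPM, with the highest in 6-month knockout controls. Prdx4 gave 242 counts in the 20 oocytes of that group, 68 in the 20 of 6-month knockout with resveratrol and 6 to 35 in each of the other 8 groups. In 6-month knockout controls 2 of 20 oocytes had no Prdx4 count, and the median was 2.42 CPM. The summed level of 14 granulosa markers in the same oocytes ranged from 61.7 to 352 CPM with a median of 213, against group medians of 115 to 187 in the other 9 groups. A median of 4 of the 14 markers was at 0 in that group, and 9 to 11 in the others. Of the 13 markers tested between the cell types, 11 were lower and 2 higher in oocytes, so the sum is not particular to granulosa cells. The 242 counts came as 52, 86 and 104 from the 3 sets that the column names number. Over the 20 oocytes r with the granulosa markers was 0.56 for Prdx4 and -0.01 for Prdx3. For the remaining members r lay between -0.63 for Prdx1 and -0.27 for Prdx6. The part of the granulosa markers in the Prdx4 counts was not tested. Prdx4 had a genotype term of 1.42 (SE 0.59, edgeR adjusted p = 0.356) and a term of -1.87 (SE 0.66, edgeR adjusted p = 0.215) for 10 against 6 months.

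**Figure D4:**
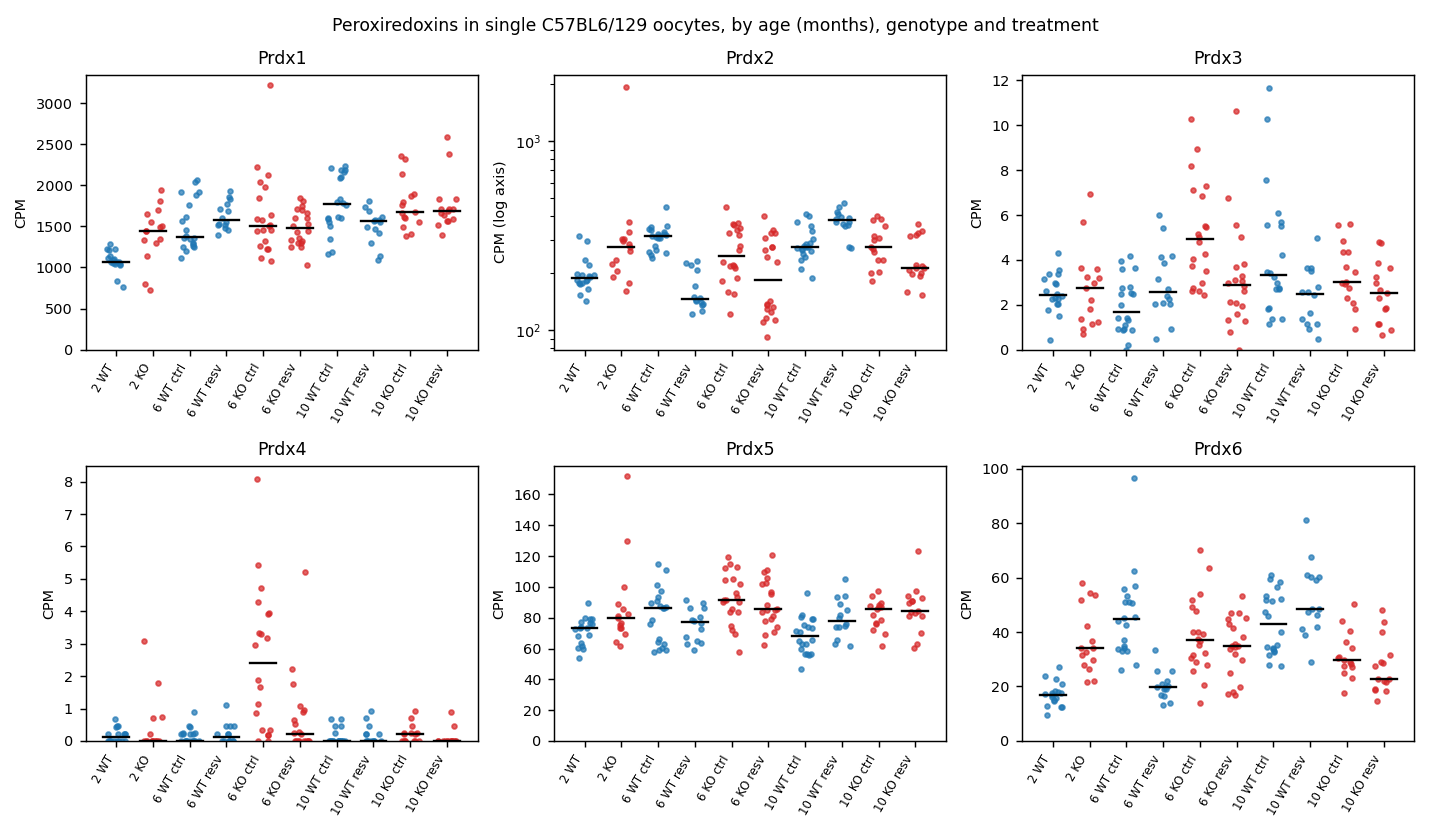
Each panel plots 1 member in single C57BL6/129 oocytes, with the 10 groups (age in months, genotype, treatment) on the horizontal axis and CPM on the vertical axis, on a log axis for Prdx2; points are oocytes, blue for wild type and red for knockout, and lines are medians. Prdx2 and Prdx6 are low in 6-month wild-type oocytes with resveratrol, and Prdx4 counts concentrate in 6-month knockout controls.

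Partner lists in the oocyte model gave 0 genes past the threshold in all 6 contrasts. The 2 reductants with the lowest p for 10 against 2 months were Glrx5 at 0.90 and Txn1 at 0.38 on the log2 scale, and Gclm and Gclc, subunits of the enzyme that starts glutathione synthesis, were at 2.22 and 0.73. For the same ages the lowest p of the other lists were Sesn1 at -0.61 and Sesn2 at -0.70, Pdia4 at 0.27 and Ero1lb at -0.21, and Sod2 at 0.29 and Cat at -0.40. For genotype they were Txnip at -0.57 and Glrx3 at 0.52, Sesn2 at -0.62 and Srxn1 at 1.39, Gpx7 at 4.5 and Pdia3 at 0.52, Gpx3 at -0.38 and Gpx4 at 0.38, and Keap1, the inhibitor of NRF2, at -0.71 and Gclc at 0.41. The lowest adjusted p among them was 0.0996, of Gpx7 with genotype in the edgeR model.

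The C57BL6 oocytes, with 3470831 to 11358927 counts each, allowed 2 comparisons with 1 sum per group, so no test was made and intervals cover counting error only (95%, exact conditional Poisson). Of the 5 members with at least 100 counts over the groups compared, 1 was higher by 1.5-fold or more at 10 than at 6 months, against 20.8% of 12840 genes. That member was Prdx1, at 1253 CPM in the 6-month sum and 1962 CPM in the 10-month sum, with a log2 ratio of 0.65 (interval 0.63 to 0.66). Single oocytes ranged from 721 to 1607 CPM with a median of 1327 at 6 months and from 1435 to 2684 CPM with a median of 1985 at 10 months, so the ranges overlapped. With TMM factors the ratio was 0.54 on the log2 scale, under that fold. Prdx5 stood at 88.7 against 68.7 CPM, a log2 ratio of -0.37, while Prdx2 (0.06) and Prdx6 (0.04) were near 0.

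With resveratrol at 10 months 1 of 5 members was higher by 1.5-fold or more, against 7.07% of 13585 genes. It was Prdx3, at 2.14 CPM in the control sum and 3.24 CPM with resveratrol, a log2 ratio of 0.60 (interval 0.22 to 0.98) from 84 and 199 counts, whose lower bound lies under that fold. Prdx1 stood at 1652 CPM with resveratrol, a log2 ratio of -0.25. Prdx5 was at 77.3 CPM and Prdx2 at 264 CPM, log2 ratios of 0.17 and 0.10. Prdx4 gave 7, 5 and 4 counts in the 3 sums, from which no difference can be read.

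**Figure D5:**
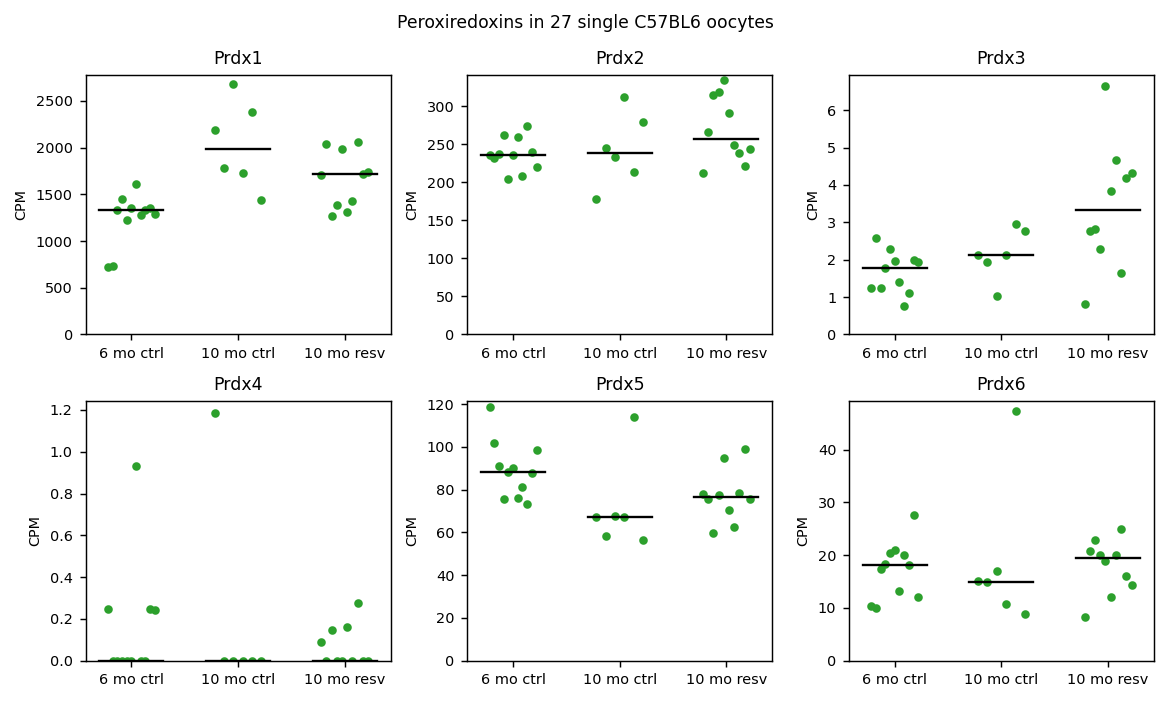
Each panel plots 1 member in single C57BL6 oocytes, with 11, 6 and 10 oocytes in the 3 groups on the horizontal axis and CPM on the vertical axis; points are oocytes and lines are medians. Prdx1 medians are 1327, 1985 and 1715 CPM from left to right.

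Genes with patterns most like each member were named by Pearson's r of log2 CPM among 7714 genes over the 18 granulosa pools, as a description. For Prdx5 they were Idh3g (0.951), Ifi30 (0.951), Nek6 (0.946), Med29 (0.935) and Akr1a1 (0.930), at 0.885 to 0.962 over the 12 old pools. For Prdx4 they were Ssr2, Ppib and Snx22, at 0.934 to 0.955 over 18 and 0.974 to 0.989 over 12 pools. Prdx1 was nearest to Eloc, Btf3 and Sarnp (0.972 to 0.977), Prdx2 to its overlapping neighbour Rnaseh2a (0.976), Bex1 and Cgrrf1, Prdx3 to Cops4, Uqcrc2 and Aasdhppt (0.936 to 0.951), and Prdx6 to Rpl4, Tmem53 and Qdpr (0.941 to 0.955). These pools share depth as well: r with log2 total counts was 0.936 for Prdx6 and 0.866 for Prdx1 over 18 pools, and 0.488 and 0.219 over the 12 old ones. Between members, r over the 12 old pools ranged from 0.547 for Prdx1 with Prdx6 to 0.936 for Prdx2 with Prdx4.

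Over the C57BL6/129 oocytes, among 6053 genes, Prdx5 was most like Trmt112 (0.923), and the next, Lmo1, was at 0.505, followed by Hax1, Nudcd1 and Cox5b at 0.489 to 0.498. The 3 genes most like Prdx2 were Rnaseh2a (0.787), Junb (0.733) and Hook2 (0.677), of which the first 2 overlap it. Prdx1 was nearest to Sub1 (0.795), Psma2 and Slc25a5, and Prdx6 to Arntl2 (0.641), Cdh20 and Atg5. Between Prdx1, Prdx2, Prdx5 and Prdx6 the r over oocytes lay between 0.153 and 0.427. All these oocytes share technical features such as depth.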

How the data were processed

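The authors deposited 2 tables of read counts per gene, with no normalization; per the submitters' processing notes HISAT2 2.1.0, featureCounts, DESeq2 and mm10 were used, and no source used here gives the use of strand. Every sample column was used (0 left out). Groups follow the titles: 18 young wild-type oocytes carry a knockout tag, and 1 C57BL6 oocyte with disagreeing labels entered no group. Tests used edgeR 4.0.16 under R 4.3.3 (TMM, filterByExpr minimum count 10, quasi-likelihood, Benjamini-Hochberg over all genes, threshold 0.05), on 18 granulosa pools (12 residual degrees of freedom), 10 oocyte sums (5 residual degrees of freedom) and 12 sums of both cell types. DESeq2, RLE factors, no filter, binomial thinning and single pools left out were among the alternatives, and the code was tested on simulated data. Named genes were the 6 members, up to 4 partners per list past the threshold or else the 2 with the lowest p, and the 3 genes (Prdx5: 5) most like each member, of mean CPM 10 or more. For 4 of the 6 oocyte contrasts, where 0 partners passed, the 2 with the lowest p are not printed. Members and lists were chosen with earlier results of these data known. Of the table's genes, 28390 matched 1 GENCODE gene. Depth limits the young pools most.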

Additional observations from a re-analysis of the deposited data

Results flagged for a closer look

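The resveratrol difference of Prdx5 in old granulosa pools differed between the labels, by a log2 value of -1.11 in the test of the difference itself. This contrast served to choose the family, so the value is a description.

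Among 6 oocytes of 10-month C57BL6 controls, 1 oocyte lay apart from the rest for each of 3 members. Prdx5 was at 113.9 CPM in oocyte 5, where the next highest was 67.5 CPM, and Prdx6 was at 47.3 CPM in the same oocyte, where the next was 17.0 CPM. Prdx4 was at 1.18 CPM in oocyte 1, from 5 counts, and at 0 in the other 5, where any count would stand apart. Prdx5 and Prdx6 share an oocyte and are not separate cases. Of 12 sets of values examined in this way, chance alone marks about 1 in 20.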

How the results depend on the processing

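The count of members past the threshold was recomputed under each alternative. Granulosa age in wild type gave 2 with no filter on low counts, 1 with only the groups compared, and 0 without any single replicate. Under the knockout label age gave 2 with no filter and 0 to 3 without single replicates. Counts in the contrasts used to choose the family are a description. Resveratrol in old wild-type pools gave 4 with only the groups compared or without pools under 1000000 counts, 1 with pools thinned to the smallest, and 0 to 2 without single replicates, against 2. Label in young pools gave 0 with only the groups compared or thinned, and 0 to 2 without single replicates, against 1. Label in old controls gave 1 with no filter, 4 with only the groups compared, 3 without pools under 1000000 counts, and 0 to 2 without single replicates, against 2. Resveratrol by label gave 0 with RLE size factors, no filter, thinned pools or the replicate block, and 0 without any single replicate, against 1. The cause was not tested. The replicate block changed no other call. Same-numbered pools had correlations of -0.14 to 0.14 (median -0.006), and pools with unlike numbers of -0.13 to 0.16 (median 0.005). These use departures from means of 3 pools, so they cannot show whether a number stands for a shared animal or batch. In oocytes no alternative gave a called member in 516 refitted values, and oocytes against granulosa cells gave 4 or 5 members called. C57BL6 age gave 0 members past the fold with TMM factors. No value past the threshold as reported changed sign; Prdx1 between the cell types, not past it, did so with total counts (-0.33). The median of all genes with age in wild-type pools moved from 0.17 to 0.07 with RLE factors. Shallow young pools limit what age contrasts can show. Leaving out pools under 1000000 counts could not be fitted where a contrast needs young wild-type pools.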

Other observations

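The highest Prdx2 value of the C57BL6/129 oocytes, 1928 CPM, belonged to a 2-month knockout oocyte, where the next highest of its group was 371 CPM. The same oocyte had the highest Prdx5 (172 CPM) and Rnaseh2a (221 CPM, against a median of 19.3) and the lowest Prdx1 (725 CPM) of all these oocytes, while Junb, which also overlaps Prdx2, was at 22 CPM against a median of 44.1.

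Prdx6-ps2, a processed pseudogene of Prdx6, had a median of 0.739 CPM in single oocytes and at most 1 count in any granulosa pool. How the counting shared reads between near-identical copies is not known, so values of Prdx6 and its copies are uncertain to that extent. Prdx6b and Prdx2-rs3 had 3 counts and 1 count over all C57BL6/129 oocytes.

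The C57BL6 oocyte whose title and treatment label disagree held Prdx1 at 1754 CPM, Prdx2 at 207 CPM, Prdx3 at 4.78 CPM, Prdx5 at 70.7 CPM and Prdx6 at 12.8 CPM, with no Prdx4 count.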
